A study of Aedes albopictus with 4 samples.

Results

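This report describes 73 genes for heat shock proteins, DnaJ co-chaperones and BAG proteins among the 25320 genes measured by RNA sequencing in larvae of Aedes albopictus, the Asian tiger mosquito. They were chosen by product name, with earlier results of these data known. A name had to hold "heat shock", "hsp" followed by a number, "dnaJ", "lethal(2)essential", "alpha-crystallin", "BAG domain" or "BAG family", and lack the word "factor". Of 74 genes with such a name, 1 was left out because a gene nested inside it had nearly as many counts as the gene itself. RNA came from whole larvae in the fourth instar at 72 h. In 2 libraries the larvae had been exposed to diquat, a herbicide that passes electrons to oxygen, at 1/5 of the LC50 (the concentration that kills the median larva), and in 2 control libraries they had received no treatment.

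Heat shock proteins are chaperones, which hold or refold proteins that have lost their shape. Hsp70 binds exposed stretches of a client with energy from ATP, DnaJ proteins bring clients to it and speed its ATPase, and exchange proteins such as the BAG and GrpE families release the nucleotide. Hsp90 matures signalling proteins, mitochondrial Hsp60 and Hsp10 form a folding chamber, and small heat shock proteins hold unfolded clients without ATP. In flies the cognate Hsp70 genes are active in unstressed cells, whereas other Hsp70 genes and several small heat shock genes are switched on by heat through heat shock factor.

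Values are the authors' normalized counts, from libraries of 45243090 and 48383964 counted reads with diquat and 34502559 and 39242657 in controls, so that depth differed between the groups. limma was run on every gene whose 4 libraries averaged 10 normalized counts or more. Fold changes are log2 differences on the log2(value + 1) scale, diquat over control, with limma's standard error (SE), and a gene was called at an adjusted p under 0.05 over all tested genes. The design text speaks of duplicates and no source says that libraries came from separate batches of larvae, so the spread between libraries may be technical. The p-values measure no more than that spread, and with 2 libraries per group limma draws part of it from a trend over all genes. Small p-values depend on that trend: with a constant variance prior the adjusted p went from 1.09e-21 to 0.0156 for LOC109401240. It went from 7.04e-16 to 0.0461 for LOC109425568 and from 1.35e-22 to 0.02 for LOC109427854. In a whole larva, fewer cells of a type and less RNA per cell cannot be told apart.

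Mitochondrial chaperones, the most abundant cognate Hsp70 and 14 DnaJ genes were higher in diquat larvae, while 5 of 7 genes named Hsp70 A1 or B2 and a DnaJ-1 gene were lower. Of 67 members that passed the filter, 28 (41.8%) rose and 10 (14.9%) fell. Over all 17992 tested genes 48.8% were called, 26.7% higher and 22.0% lower. The median log2 fold change was 0.17 over the tested members and -0.00 over all tested genes, and the members' median was 0.09 with the trend of fold changes on genomic span removed. A change of at least 2-fold was called higher in 3 members and lower in 4, against 2.33% and 2.82% of all tested genes. The 3 include LOC115268774, which passed the filter only through its diquat libraries. The count of rising members was 18 without diquat replicate 2, and 20 by DESeq2. Both diquat libraries lay above both controls in 36 tested members and below both in 17, against 37.4% and 35.5% of all tested genes. By class, 51.9% of tested DnaJ genes rose and 3.70% fell, and among small heat shock genes the shares were 18.8% each way. DnaJ C7 and C22, both counted as rising, contain nested genes with means of 86.1% and 76.2% of their own. Without them 12 of 25 tested DnaJ genes rose and 1 fell. Without all members that hold a nested gene at 20% or more of their mean, 26 of 64 tested members rose and 10 fell.

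**Figure D1:**
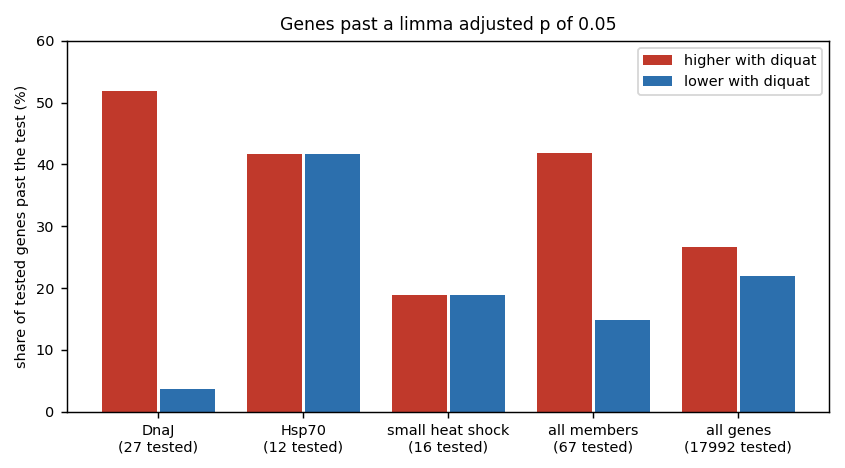
Share of tested genes (percent) past a limma adjusted p of 0.05, higher (red) or lower (blue) with diquat, in 3 classes, in all members and in all genes. Of the 27 tested DnaJ genes 51.9% were called higher, against 26.7% of all genes. These include DnaJ C7 and C22, which contain nested genes with means of 86.1% and 76.2% of their own. The 12 Hsp70 genes had 5 called each way, and the rising LOC115268774 passed the filter only through its diquat libraries.

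**Figure D2:**
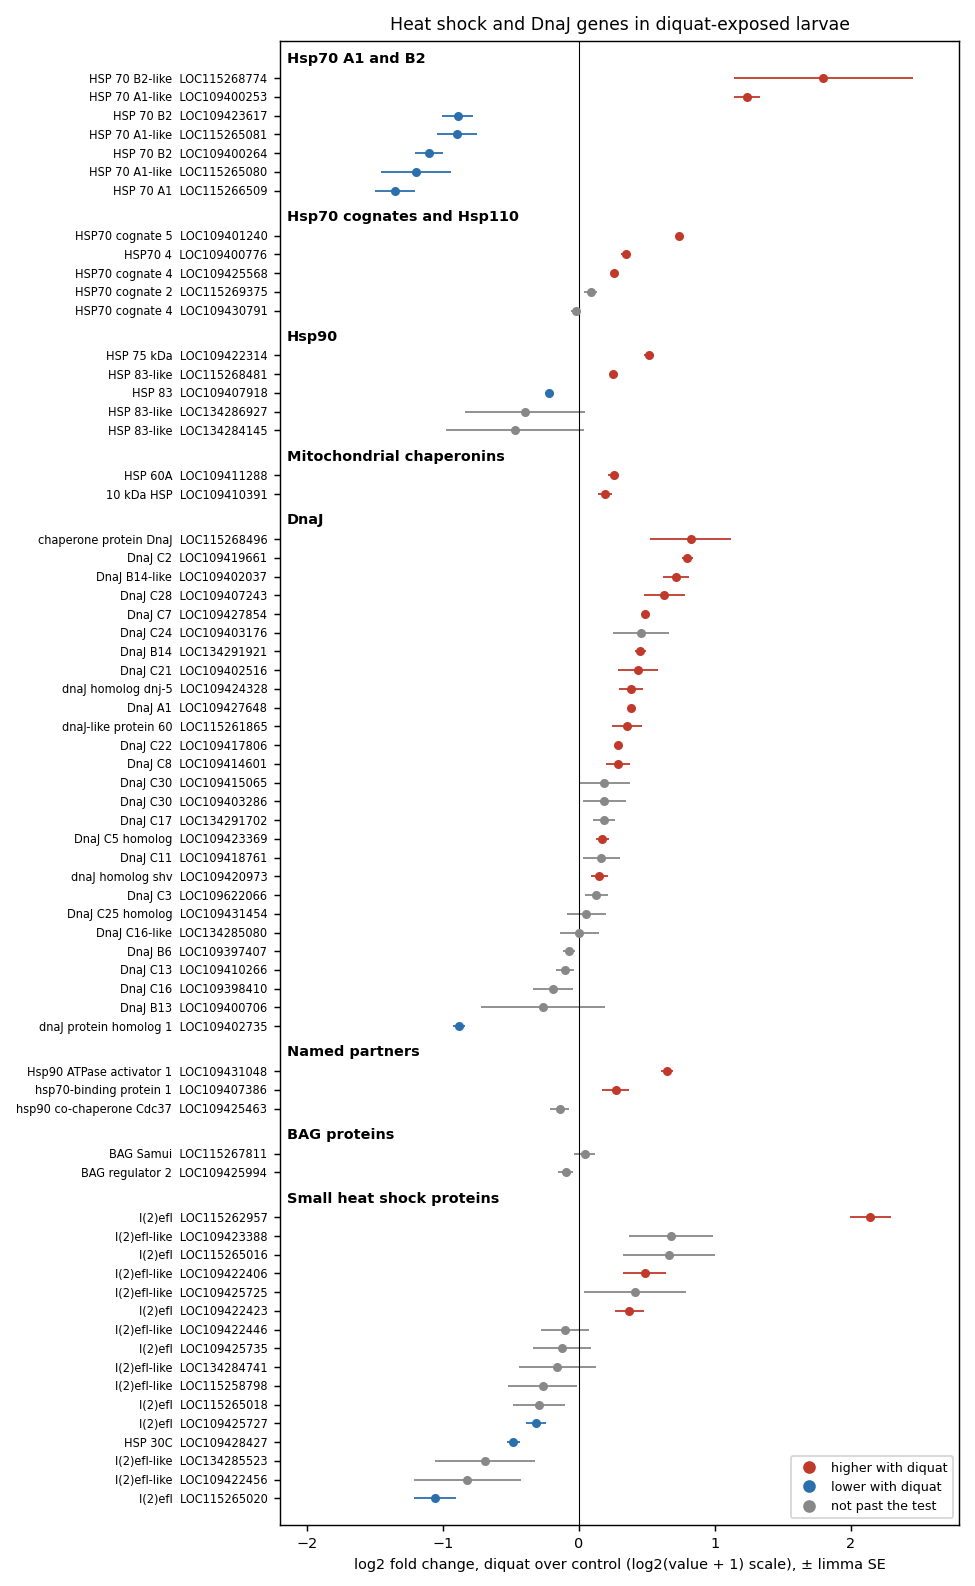
Log2 fold change, diquat over control, of the 67 tested members by class, with limma SE as bars; red points were called higher, blue points lower, and grey points did not pass the test. The values run from 2.14 for an l(2)efl gene to -1.35 for an Hsp70 A1 gene.

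The Hsp70 family moved both ways, with 5 of 12 genes higher and 5 lower, against 26.7% and 22.0% of all tested genes. All 7 genes named Hsp70 A1 or B2, names given to heat-inducible Hsp70 genes in Anopheles mosquitoes, were called, 2 higher and 5 lower. Of the rising genes, LOC115268774 passed the filter only through its diquat libraries. Of the 5 genes named as cognates or as Hsp70 protein 4, 3 rose and none fell.

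Heat shock protein 70 A1 (LOC115266509) had 148.4 and 132.3 normalized counts in diquat libraries, against 330.1 and 391.3 in controls. The groups did not overlap, and the log2 fold change was -1.35 ± 0.15 (SE with 2 libraries per group, adjusted p = 2.05e-08). Its A1-like neighbour LOC115265080 had 42.1 and 44.4 with diquat and 98.1 and 103.3 in controls (-1.20 ± 0.26, adjusted p = 0.000399). Another A1-like gene, LOC115265081, had 161.3 and 200.6 with diquat and 311.0 and 362.0 in controls (-0.90 ± 0.15, adjusted p = 1.16e-05).

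Both genes named Hsp70 B2 were lower as well. LOC109400264 had 297.8 and 309.8 normalized counts with diquat and 663.8 and 644.8 in controls (log2 fold change -1.10 ± 0.10, adjusted p = 7.82e-10). LOC109423617, which the naming rule did not pick and which is given to complete the set, had 331.7 and 271.4 with diquat and 529.9 and 588.5 in controls (-0.89 ± 0.12, adjusted p = 3.06e-07). For each of these 5 genes the highest diquat library lay below the lowest control.

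A further Hsp70 A1-like gene, LOC109400253, went the other way. It had 776.1 and 798.9 normalized counts with diquat, against 312.2 and 356.8 in controls, 1.24 ± 0.10 on the log2 scale (adjusted p = 4.77e-11). In the AalbF5 annotation this gene and the 5 falling genes are 6 consecutive genes with no other measured gene between them, and LOC109400253 stands at one end. The row as a whole had 1757 normalized counts in each diquat library and 2245 and 2447 in controls, a ratio of 0.749, and its 5 falling genes together had 981.3 and 958.5 with diquat and 1933 and 2090 in controls, a ratio of 0.482. With 2 libraries per group an exact permutation test of such a sum cannot go below 0.333, so the sums carry no test. The sources used here do not say how reads shared by similar copies were divided. Values of single copies are uncertain to that extent, here, in the row of small heat shock genes and for the neighbouring Hsp83 genes.

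Outside that row, the Hsp70 B2-like gene LOC115268774 had 15.6 and 24.8 normalized counts with diquat and 2.39 and 9.39 in controls, from 17 and 29 reads with diquat and 2 and 9 in controls. The group means were 20.2 with diquat and 5.89 in controls, so the gene reached the filter mean of 10 only through its diquat libraries. DESeq2 gave it no adjusted p. Its log2 fold change of 1.80 ± 0.66 passed narrowly in the main test (adjusted p = 0.0258). The call was lost without control replicate 1 (0.99, adjusted p = 0.199), without diquat replicate 1 (adjusted p = 0.0776), with a constant variance prior (0.133) and with the trend on genomic span removed (0.0511).

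**Figure D3:**
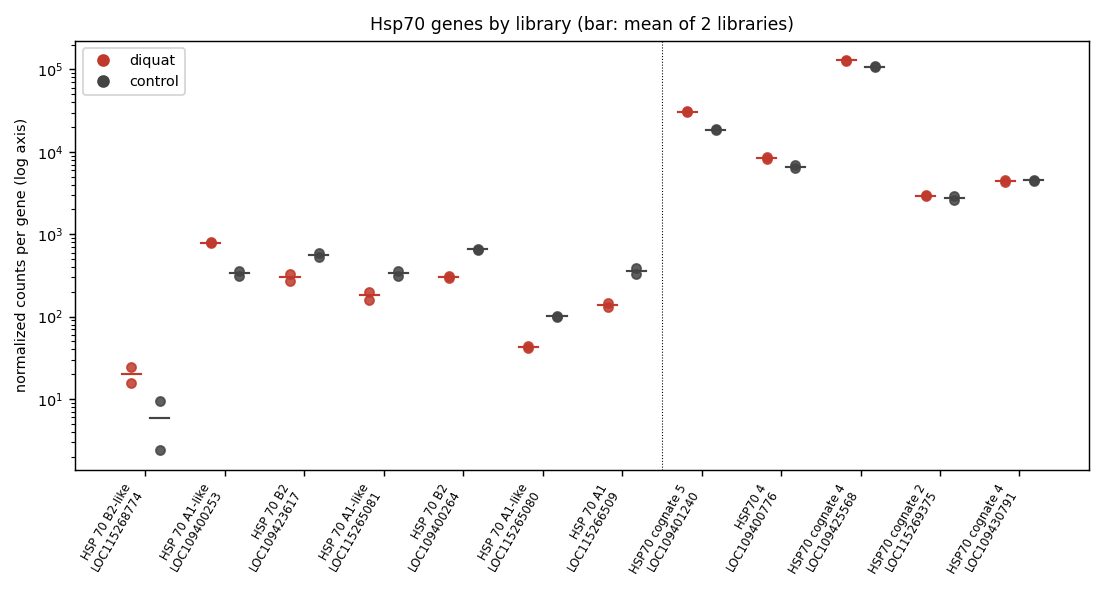
Normalized counts (log axis) of the 12 Hsp70 genes in each library, with diquat (red) left of control (grey) and a bar at each group's mean of 2 libraries. Of the 7 A1 and B2 genes left of the dotted line, 5 have both diquat libraries below both controls.

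Cognate Hsp70 genes moved less in relative terms but hold most of the family's counts. Heat shock 70 kDa protein cognate 5 (LOC109401240), whose fly counterpart is the Hsp70 of mitochondria, had 30710 and 30984 normalized counts with diquat and 18682 and 18293 in controls. The log2 fold change was 0.74 ± 0.02 (adjusted p = 1.09e-21), the largest rise among the cognates. Cognate 4 (LOC109425568), named for the main cytosolic Hsp70 of unstressed fly cells, had 129401 and 127553 with diquat and 108916 and 105826 in controls (0.26 ± 0.01, adjusted p = 7.04e-16). It lies inside an undescribed noncoding gene, LOC134291450, that rose by 0.24.

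Heat shock 70 kDa protein 4 (LOC109400776), of the Hsp110 branch that helps Hsp70 release its nucleotide, had 8238 and 8624 normalized counts with diquat and 6399 and 6875 in controls (log2 fold change 0.35 ± 0.03, adjusted p = 1.89e-09). The remaining genes did not pass the test. A second cognate 4 gene (LOC109430791) stood at -0.02 ± 0.04 and cognate 2 (LOC115269375), which lies inside a gene with more counts, at 0.09 ± 0.05. The ratio of summed counts, diquat over control, was 1.253 for these 5 genes and 0.756 for the 7 A1 and B2 genes.

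Of 5 Hsp90 genes 2 rose and 1 fell, against 26.7% and 22.0% of all tested genes. Heat shock protein 75 kDa (LOC109422314), the Hsp90 of mitochondria, had 4706 and 4709 normalized counts with diquat and 3394 and 3195 in controls (log2 fold change 0.52 ± 0.04, adjusted p = 1.78e-11). The cytosolic Hsp90, called Hsp83 in flies, is represented by a pair of abundant genes with 1 other measured gene between them. The pair went opposite ways. Heat shock protein 83-like (LOC115268481) had 12718 and 12920 with diquat and 10948 and 10601 in controls (0.25 ± 0.02, adjusted p = 3.02e-09). Heat shock protein 83 (LOC109407918) had 8639 and 8676 with diquat and 10152 and 10066 in controls (-0.22 ± 0.03, adjusted p = 5.37e-08).

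Together the Hsp83 pair had 21357 and 21596 normalized counts with diquat and 21100 and 20667 in controls, a ratio of 1.028, so that the opposite differences of the copies nearly cancel. How any reads shared by the copies were divided between them is not known. The fall of LOC109407918 lost its call with a constant variance prior (adjusted p = 0.0544). The other Hsp83-like genes, LOC134286927 and LOC134284145, had means of 24.2 and 17.4 over the 4 libraries and did not pass (-0.40 ± 0.44 and -0.47 ± 0.51), and the second lies inside the first; both lie inside another gene with far more counts.

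The mitochondrial chaperonin rose slightly. Heat shock protein 60A (LOC109411288), the wall of the folding chamber, had 3582 and 3618 normalized counts with diquat and 2991 and 3040 in controls (log2 fold change 0.26 ± 0.04, adjusted p = 6.37e-06). Its lid, the 10 kDa heat shock protein (LOC109410391), had 2389 and 2469 with diquat and 2176 and 2078 in controls (0.19 ± 0.05, adjusted p = 0.00172). The lid's call was lost with a constant variance prior (adjusted p = 0.0963), and its value was -0.01 once the trend of fold changes on genomic span was removed (adjusted p = 0.943).

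Members named for mitochondria, with Hsp60A and cognate 5, thus numbered 7. Of the 6 that were tested 4 rose and none fell, against 26.7% and 22.0% of all tested genes. Hsp60A and cognate 5, which lack the word in their names and were added, are both among the 4 rises. Those without a call were the tested DnaJ C30 genes, LOC109415065 at 0.19 ± 0.19 and LOC109403286 at 0.19 ± 0.16. Over the 7 genes the summed normalized counts were 41768.2 and 42147.5 with diquat and 27601.6 and 26926.2 in controls, a ratio of 1.539, most of them from cognate 5.

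DnaJ genes formed the largest class, with 28 members, 27 of them tested. Of the tested genes 14 were higher and 1 lower, against 26.7% and 22.0% of all tested genes. The rises were small, and none reached 2-fold. The count of rising DnaJ genes depended on the setting: it was 9 by DESeq2, 9 with a constant variance prior, 9 without diquat replicate 1 and 8 without diquat replicate 2.

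The only called fall in the class was that of DnaJ protein homolog 1 (LOC109402735), named for the fly Hsp40 that is induced by heat and works with Hsp70. It had 2142 and 2234 normalized counts with diquat and 3953 and 4133 in controls, -0.89 ± 0.04 on the log2 scale (adjusted p = 2.07e-15). Both diquat libraries lay below both controls. LOC109402735 lies on an unplaced sequence of AalbF5, so its overlap with other genes was not examined.

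Among rising DnaJ genes, DnaJ C2 (LOC109419661), whose yeast and human counterparts sit on the ribosome and act on new proteins, had 4693 and 4741 normalized counts with diquat and 2713 and 2716 in controls. The log2 fold change was 0.80 ± 0.04 (adjusted p = 1.47e-15). The gene lies inside integrator complex subunit 14 (LOC109419662), which rose by 0.72, and reads of the pair were not separated here.

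DnaJ B14-like (LOC109402037) and DnaJ B14 (LOC134291921) are named for a J protein of the endoplasmic reticulum (ER) membrane. LOC109402037 had 725.7 and 699.0 normalized counts with diquat and 472.4 and 398.6 in controls (log2 fold change 0.71 ± 0.10, adjusted p = 7.56e-07). LOC134291921 had 3306 and 3332 with diquat and 2460 and 2390 in controls (0.45 ± 0.04, adjusted p = 1.46e-09). Both diquat libraries of each gene lay above both controls. DnaJ C3 (LOC109622066), a J protein of the ER lumen in mammals, did not pass (0.13 ± 0.09).

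DnaJ A1 (LOC109427648), a cytosolic partner of Hsp70, had 16223 and 16447 normalized counts with diquat and 12538 and 12565 in controls, a log2 fold change of 0.38 ± 0.02 (adjusted p = 7.61e-14). DnaJ C28 (LOC109407243) had 233.7 and 285.1 with diquat and 165.1 and 168.0 in controls (0.63 ± 0.15, adjusted p = 0.00131), a call lost without diquat replicate 2 (adjusted p = 0.0652). A gene named only chaperone protein DnaJ (LOC115268496) had 66.0 and 71.7 with diquat and 44.3 and 33.4 in controls (0.82 ± 0.30, adjusted p = 0.0251). Its call was lost in 6 alternatives, DESeq2 among them (adjusted p = 0.0891), and it lies inside Ubc12 (LOC109622784), which rose by 0.21, and overlaps mediator subunit 24 (LOC109417988), which rose by 0.54. Both of these genes had far more counts.

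The most counts in the class were given to DnaJ C7 (LOC109427854), a J protein with tetratricopeptide repeats that binds Hsp70 and Hsp90, at 114974 and 113837 normalized counts with diquat and 82008 and 81716 in controls (log2 fold change 0.48 ± 0.01, adjusted p = 1.35e-22). A gene named zinc finger protein 27-like (LOC109427842) lies inside DnaJ C7 with a mean that is 86.1% of that of DnaJ C7. The ribosomal protein gene uL18 (LOC109427514) also lies inside DnaJ C7, with 84.98%. Each of these rose by 0.47. Subtracting the zinc finger gene, which presumes that its reads were counted for both, left 16418.1 and 16389.4 normalized counts with diquat and 11034.9 and 10785.3 in controls, a log2 ratio of 0.59, and subtracting uL18 alone gave a log2 ratio of 0.58. DnaJ C22 (LOC109417806), called Wurst in flies, was called higher at 0.29 ± 0.02, and a nested apyrase gene (LOC109426761) had a mean that is 76.2% of its own. Less the apyrase, 2913 and 2839 were left with diquat and 2863 and 2882 in controls, a log2 ratio of 0.00, and less every nested gene 1802 and 1741 were left with diquat and 2121 and 2126 in controls, a log2 ratio of -0.26. Without these genes the DnaJ class had 12 higher and 1 lower of 25 tested.

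Rises were called in 6 other DnaJ genes, given here to complete the class. Their log2 fold changes were 0.44 ± 0.15 for DnaJ C21 (LOC109402516), which acts in ribosome assembly in humans, 0.38 ± 0.09 for dnj-5 (LOC109424328) and 0.35 ± 0.11 for DnaJ-like protein 60 (LOC115261865). They were 0.29 ± 0.09 for DnaJ C8 (LOC109414601), tied to the human spliceosome, and 0.17 ± 0.05 for DnaJ C5 (LOC109423369), the cysteine string protein of synaptic vesicles. The product names of LOC109423369 also include copia protein. For shv (LOC109420973), a fly J protein secreted at the neuromuscular junction, the value was 0.15 ± 0.06. Of these calls only that of dnj-5 held in every alternative that gave it a value. DESeq2 ended those of DnaJ C21 (adjusted p = 0.0742), DnaJ-like protein 60 (0.0519), DnaJ C8 (0.0525) and shv (0.161), and removing the trend on genomic span ended those of DnaJ C21 (0.121), DnaJ C8 (0.516) and shv (0.144). The call of DnaJ C5 was lost with a constant variance prior (adjusted p = 0.189), without control replicate 2 (0.104) and without diquat replicate 1 (0.122). Leaving out at least one library also ended the calls of the other 4. DnaJ C21 overlaps proteasome subunit beta type-6 (LOC109402517), which had a higher mean and was called lower at -0.20. DnaJ C5 overlaps a dipeptidase gene (LOC109423371), which also had a higher mean and stood at 0.07 without a call.

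The DnaJ genes that did not pass the test ranged from 0.46 ± 0.21 for DnaJ C24 (LOC109403176), an enzyme partner in diphthamide synthesis, to -0.27 ± 0.46 for DnaJ B13 (LOC109400706), an axonemal protein of sperm tails with a mean of 23.1 normalized counts. DnaJ B6 (LOC109397407), which keeps proteins from aggregating, stood at -0.08 ± 0.05, but was called higher with the trend on genomic span removed (0.22, adjusted p = 0.00015). DnaJ C13 (LOC109410266), which acts on endosomes, stood at -0.10 ± 0.07.

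Genes named for partners of Hsp70 and Hsp90 rose in 2 of 3 cases, against 26.7% of all tested genes. The activator of the Hsp90 ATPase (LOC109431048) had 3705.5 and 3520.6 normalized counts with diquat and 2286 and 2315 in controls, 0.65 ± 0.04 on the log2 scale (adjusted p = 1.5e-12). Hsp70-binding protein 1 (LOC109407386), which strips nucleotide from Hsp70, had 557.1 and 548.8 with diquat and 490.4 and 427.8 in controls (0.27 ± 0.10, adjusted p = 0.0258). That call was lost by DESeq2 (adjusted p = 0.105) and with the trend on genomic span removed (0.08, adjusted p = 0.518), among other settings.

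Cdc37 (LOC109425463), which brings kinases to Hsp90, had 964.9 and 996.9 normalized counts with diquat and 1129 and 1035 in controls and did not pass (-0.14 ± 0.07), though it was called lower with the trend on genomic span removed (-0.36, adjusted p = 9.15e-05). The BAG proteins did not pass either. BAG regulator 2 (LOC109425994) had 1679 and 1629 with diquat and 1812 and 1727 in controls (-0.10 ± 0.05), and Samui (LOC115267811), named after a silkworm gene, stood at 0.04 ± 0.08.

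Small heat shock proteins showed both the largest rise and one of the clear falls, and no common direction. Of 20 genes 16 were tested, 3 rose and 3 fell, or 18.8% each way, against 26.7% and 22.0% of all tested genes. Most are named l(2)efl, for lethal(2)essential for life, a fly small heat shock gene. The l(2)efl gene LOC115262957 had 451.7 and 408.0 normalized counts with diquat, against 95.7 and 97.0 in controls. Its log2 fold change of 2.14 ± 0.15 (adjusted p = 4.33e-12) was the largest in either direction among the tested members.

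The gene next to it in the AalbF5 annotation, LOC115265020, also named l(2)efl, fell. It had 171.3 and 133.1 normalized counts with diquat and 331.3 and 302.6 in controls (log2 fold change -1.06 ± 0.15, adjusted p = 2.05e-06). The gene after that, LOC109425727, had 870.5 and 989.2 with diquat and 1100 and 1217 in controls (-0.32 ± 0.07, adjusted p = 0.000898). The last call was lost without diquat replicate 1 (-0.23, adjusted p = 0.0639) and with a constant variance prior (adjusted p = 0.104).

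These 3 genes close a row of 13 l(2)efl genes that are consecutive among the measured genes. Elsewhere in the row, LOC109422406 had 211.7 and 216.8 normalized counts with diquat and 156.7 and 149.2 in controls (log2 fold change 0.48 ± 0.16, adjusted p = 0.0137), and its neighbour LOC109422423 had 519.5 and 612.8 with diquat and 472.4 and 403.8 in controls (0.37 ± 0.11, adjusted p = 0.00539). Both calls were lost without diquat replicate 2 (adjusted p = 0.0902 and 0.169), LOC109422406 also lost its call without diquat replicate 1 (0.0704) and by DESeq2 (0.0595), and LOC109422423 lost its call without control replicate 2 (0.0526) and with a constant variance prior (0.131). The other tested genes of the row did not pass and ranged from 0.68 ± 0.31 (LOC109423388) to -0.82 ± 0.40 (LOC109422456), with means of 30.8 to 178.4 normalized counts.

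Summed over the row of 13, diquat libraries had 2756 and 2969 normalized counts and controls 2788 and 2706, a ratio of 1.042. Single genes in the row ran from 2.14 to -1.06 on the log2 scale. The ratio of the Hsp70 row's total was 0.749. Outside the row, the small heat shock gene with the most counts was named heat shock protein 30C or beta-1 by isoform (LOC109428427). It had 3541 and 3094 with diquat and 4799 and 4459 in controls (-0.48 ± 0.05, adjusted p = 4.32e-09). It overlaps a GABA receptor subunit gene (LOC109428426) whose mean is 39.0% of its own and which fell by 0.48.

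**Figure D4:**
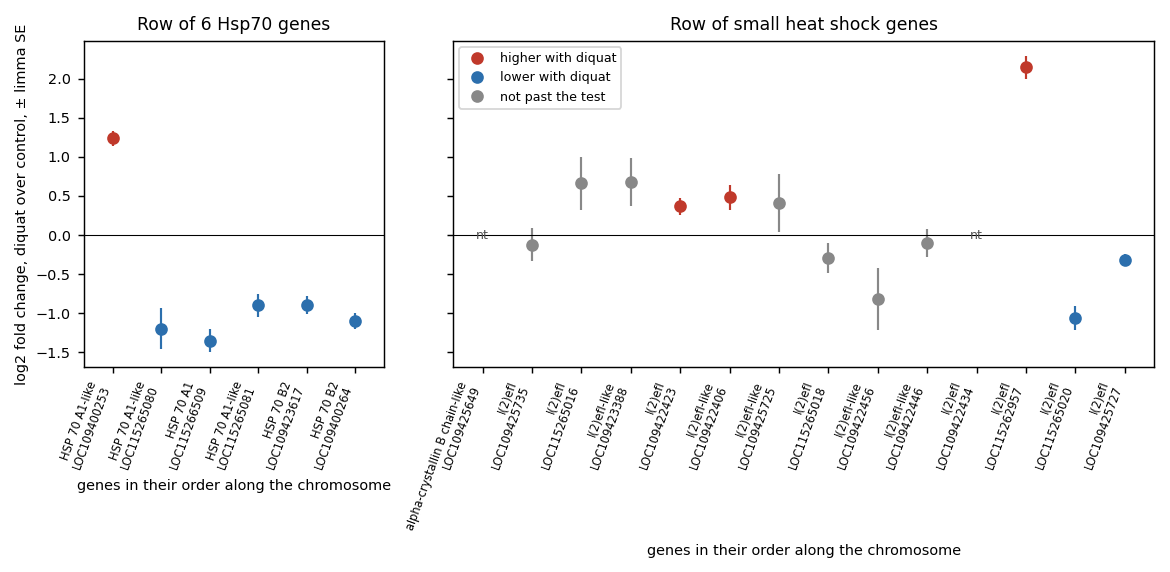
Log2 fold change, diquat over control, with limma SE, of 6 Hsp70 genes (left) and of the small heat shock genes in a row (right). The genes stand in their order along the chromosome in AalbF5, among measured genes only. Colours are as in the plot of all members, and "nt" marks genes too low to test. The Hsp70 row has 1 rising gene at 1.24 and 5 falling genes, and the second row has its largest rise at 2.14 beside a fall of -1.06.

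Members below the filter numbered 6, and no fold is given for them. The alpha-crystallin B chain-like gene (LOC109425649), near the other end of the l(2)efl row, had 4 and 0 reads with diquat and 7 and 1 in controls. Heat shock protein 23-like (LOC134287303) had 0 reads in each diquat library and 4 in each control. A 10 kDa heat shock protein-like gene (LOC109427001) had 4 and 2 reads with diquat and 4 and 16 in controls. DnaJ C2-like (LOC134286237) and the l(2)efl genes LOC109422434 and LOC134291337 had at most 4 reads in any library. In the fit without a filter heat shock protein 23-like was called lower (adjusted p = 0.0255), and the other 5 were not called, with adjusted p of 0.136 to 0.720.

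Heat shock factor, the transcription factor that switches on heat shock genes, and other chaperones and partners outside the 73 genes were taken from a list by name. The list held 40 genes, 16 higher and 7 lower, of which 16 had matched by letters only, such as exchange factors of small GTPases. Of the other 24 genes 12 rose and 1 fell, against 26.7% and 22.0% of all tested genes. Their median log2 fold change was 0.17, which was 0.01 once the trend on genomic span was removed. Heat shock factor itself (LOC109425768) had 1491 and 1448 normalized counts with diquat and 1297 and 1304 in controls (0.18 ± 0.06, adjusted p = 0.0154), and the heat shock factor-binding proteins LOC115255129 and LOC115255131 did not pass, at -0.15 ± 0.07 each.

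The mitochondrial GrpE homolog (LOC109424556), which exchanges nucleotide on mitochondrial Hsp70, had 689.1 and 722.0 normalized counts with diquat and 411.4 and 406.9 in controls. Its log2 fold change was 0.78 ± 0.09 (adjusted p = 7.1e-08), beside 0.74 ± 0.02 for cognate 5. Alanyl-tRNA editing protein Aarsd1 (LOC109432121), whose mouse gene also encodes a partner of Hsp90, had 1797 and 1825 with diquat and 761.9 and 743.9 in controls (1.27 ± 0.06, adjusted p = 3.47e-15), and it overlaps a gene for an ATP synthase assembly factor (LOC109432122) that rose by 0.55.

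Chaperones of the ER differed among themselves. Hypoxia up-regulated protein 1 (LOC109399798), an Hsp70 relative of the ER lumen, had 5272 and 5384 normalized counts with diquat and 3734 and 3715 in controls (log2 fold change 0.52 ± 0.04, adjusted p = 2.35e-12). It lies inside an undescribed gene, LOC134291443, that rose by 0.28. BiP (LOC109413675), the main Hsp70 of the ER, had 7093 and 7204 with diquat and 7090 and 7474 in controls and did not pass (-0.03 ± 0.03). A BiP-like gene (LOC109413676) did not pass either (-0.22 ± 0.11). The endoplasmin gene LOC109396991 rose by 0.24 ± 0.03, and LOC115259492, which has the same name and lies inside it, rose by 0.26 ± 0.03. An endoplasmin-like gene, LOC115254801, was the list's only called fall (-0.47 ± 0.16). Of the Hsp90-cycle partners, FK506-binding protein 59 (LOC115262055) rose by 0.23 ± 0.06, whereas stress-induced-phosphoprotein 1 (LOC109407834), the bridge between Hsp70 and Hsp90, stood at 0.01 ± 0.05. The unc-45 genes, chaperones of myosin, rose by 0.64 ± 0.09 (LOC109415066) and 0.63 ± 0.08 (LOC109403279).

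Tissue lists by product name also moved with treatment, and their part in the changes above was not tested. Over all tested genes 26.7% were higher and 22.0% lower. Among 168 tested cuticle genes 137 fell and 6 rose, with summed normalized counts of 388716 to 388903 with diquat and 645933 to 651027 in controls. Muscle genes had 21 higher and 18 lower of 56 tested, with a ratio of sums of 1.273. Haemocyte genes had 16 higher and 3 lower of 31 tested, with sums of 62519 to 63257 with diquat and 50447 to 50475 in controls. Gut genes had 63 higher and 24 lower of 135 tested, with sums of 565600 to 568478 with diquat and 580861 to 585042 in controls. Sperm and axoneme genes had 15 higher and 11 lower of 76 tested, with a ratio of sums of 1.035.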

How the data were processed

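Per the labels' protocols, RNA was isolated by a Zymo Direct-Zol miniprep and libraries were built with the NEBNext Ultra II RNA kit. The submitters' processing notes list STAR 2.7.10a, fastp 0.12.4, bcl2fastq and DRAGEN, without roles. No source used here names the counter, genome build, strand setting or normalizing tool. The authors deposited a normalized signal per gene and library. In each library 100% of values were whole multiples of 1 step (relative tolerance 1e-06), which gave back whole read counts.

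Genes with a mean of 10 or more were tested on log2(value + 1) with limma 3.58.1 (mean trend, R 4.3.3), two-sided, with Benjamini-Hochberg adjustment over all tested genes. This replaced a count test, because the deposited values are normalized. On the recovered reads edgeR 4.0.16 (quasi-likelihood) called 8829 genes and DESeq2 1.42.0 called 7243, against 8772 by limma. Of these fits only that of limma was tried on simulated data, and its outcome is not used here. All 25320 genes were matched to the AalbF5 table of RefSeq, used only for gene order, overlap and span. Order and overlap were taken among these 25320 genes, so annotated genes without a measured value were not considered. Whether reads in an overlap were counted for both genes is not known.

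The members, lists and classes were chosen with earlier results of these data known. Genes were named by rule: per class, the most abundant one; the 4 largest called changes each way with a mean of 50 or more and groups that did not overlap; any called change of 2-fold; and the 3 of smallest p in the pathway list. Others are given to complete a class or list. Sequences of the members were not used here.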

Additional observations from a re-analysis of the deposited data

How the results depend on the processing

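In the main test 28 members rose and 10 fell. The count of rising members moved by over 1.5 times only without diquat replicate 2, at 18, and with a 2-fold minimum, at 3 higher and 4 lower. With each library left out in turn the counts ranged from 18 to 26 higher and from 9 to 11 lower. Over the other alternatives (pseudocounts of 0.5 and 5, no filter or a mean of at least 50, 3 scalings, a constant variance prior, edgeR, DESeq2, genomic span trend removed, members without an overlap) they ranged from 19 to 28 higher and from 8 to 12 lower. With the replicate number as a block there were 28 higher and 10 lower. Replicate numbers are only shared labels: deviations of same-numbered libraries had a correlation of 0.01 across genes. Of 31 called genes among the 32 named by rule, 22 kept their call and direction in all 16 alternatives that gave them a value. Over all pairs of gene and alternative, 480 of 509 kept call and direction and 28 lost the call. The 10 kDa heat shock protein (LOC109410391) turned to -0.0052 with the trend on genomic span removed. That removal lowered the median of the tested members to 0.09, and quantile normalization lowered it to 0.12; neither moved the median of all genes by more than 0.01. Median-ratio scaling left all values as deposited. Low genes carried wider errors under limma's mean trend. The standard error was 0.46 for DnaJ B13 (LOC109400706), with a mean of 23.1 normalized counts, and 0.01 for the abundant cognate 4 (LOC109425568). The part of read depth in these errors was not tested. The cause of the lost calls was not tested.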

Other observations

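The gene left out, a second DnaJ protein homolog 1 (LOC115253617), contains a collagenase gene (LOC109398533) whose mean is 92.8% of its own. The collagenase had 25206.3 and 25015.6 normalized counts with diquat and 79760.8 and 78443.6 in controls and fell by 1.66 on the log2 scale. Subtracting it, which presumes that its reads were counted for both genes, left 3857 and 4046 normalized counts with diquat and 4173 and 4070 in controls for LOC115253617, a log2 ratio of -0.06. The member of the same name, LOC109402735, had a log2 fold change of -0.89. The difference between these genes was not tested.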
